A study of Mus musculus with 9 samples.

Results

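The genes described here are the enzymes and transporters of glycolysis together with the core genes of the cellular response to low oxygen. They were measured in leptin receptor (LEPR) lineage stromal cells from the fibrous tissue around a tibial implant in mice. The set is a list of 35 gene symbols, matched by Entrez identifier to the deposited matrix of 27179 genes. All 35 were present, and all 35 were among the 15832 genes with enough reads to be tested. Each member reached a normalized count of 10 in at least 7 of the 9 libraries. A normalized count is a gene's read count divided by a size factor that evens out library depth. The control group comprised 4 libraries of genotype Lepr-CreERT;Tdtomato, and the conditional knockout (cKO) group comprised 5 libraries of genotype Lepr-CreERT;Tdtomato;Grem1fl/fl, in which loxP sites flank both alleles of the BMP antagonist Gremlin 1. Every mouse, control mice included, carried the tamoxifen-inducible Cre and the red fluorescent reporter, received tamoxifen and underwent tibial implantation, and tissue was taken 2 weeks after surgery. The sorted cells lacked blood lineage markers and carried tdTomato. The reporter is permanent once Cre has acted, so it marks cells that expressed Lepr at the time of tamoxifen and their progeny rather than cells that express Lepr at harvest. The controls carry Cre without floxed Grem1, and the age and sex of the mice and whether each library is 1 animal are not given in the labels. If libraries shared animals or preparations, the p-values below would measure only the spread between libraries.

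Glycolysis splits glucose into pyruvate in the cytoplasm. Glucose enters through transporters of the SLC2A family, is trapped by hexokinases, is committed to the pathway by phosphofructokinase, and is converted through aldolase, triosephosphate isomerase, glyceraldehyde-3-phosphate dehydrogenase, phosphoglycerate kinase, phosphoglycerate mutase, enolase and pyruvate kinase. Lactate dehydrogenase and monocarboxylate transporters then dispose of the pyruvate as lactate. Hypoxia-inducible factors (HIFs) are dimers of an oxygen-labile alpha subunit, encoded by Hif1a or Epas1, and a stable partner. With oxygen present, prolyl hydroxylases of the EGLN family mark the alpha subunit for destruction. In low oxygen the dimer binds a short core sequence in DNA and raises transcription of most glycolytic enzymes and of genes for mitophagy, acid handling and HIF feedback. Cells of skeletal tissue, chondrocytes above all, work in poorly perfused matrix and rely heavily on this system. HIF alpha is regulated mainly at the protein level, which RNA counts do not measure.

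Libraries held 44.8 to 53.4 M recovered reads in controls, 76.3 to 87.2 M in cKO replicates 1 to 4 and 43.5 M in cKO replicate 5. In cKO replicates 1 to 4, genotype and depth cannot be told apart, so replicate 5 is given separately throughout. Grem1 was lower in all 5 knockouts (46.4 to 133 normalized counts) than in all 4 controls (356 to 736; limma log2 fold change -2.72, SE 0.43, adjusted p = 0.00781). The 15 markers of LEPR-lineage stroma were all detected, with sums of 5.8 to 8.29 M normalized counts in controls and 4.5 to 9.31 M in knockouts, and 2 of them rose. Collagen genes made up most of these sums, which therefore say little of the other markers. Lepr itself was uneven, with 18730, 5380, 40594 and 935 in controls and 15785, 13110, 9822, 13845 and 1347 in knockouts. Ebf1 was more even, at 3753 to 6023 in controls and 3506 to 5620 in knockouts. All 13 skeletal muscle markers rose, with summed levels of 3473 to 6702 in controls, 97781 to 725057 in cKO replicates 1 to 4 and 94935 in replicate 5, and Mybpc2 was at 0 in every control. Of 15 chondrocyte markers 10 fell and none rose, with sums of 2.13 to 5.07 M in controls, 0.197 to 0.482 M in cKO replicates 1 to 4 and 1.38 M in replicate 5. Endothelial markers summed to 189632 and 233133 in controls 1 and 3 and to 9198 to 14355 in knockouts, with 11614 and 17391 in controls 2 and 4, and 2 of the 12 fell. Of 8 Schwann cell markers 6 rose (26315 to 33002 in controls, 54766 to 118984 in knockouts). Macrophage, neutrophil and erythroid sums overlapped between the groups (31884 to 68541, 133103 to 582795 and 54511 to 107346 in controls; 5872 to 126619, 46341 to 797594 and 13517 to 151991 in knockouts), and of their 14, 11 and 9 measured genes 1, 0 and 0 fell and none rose. The most abundant genes of these lists were Acta1 and Des for muscle, Col2a1 and Comp for cartilage, Pecam1 and Eng for endothelium, Pmp22 and Cnp for Schwann cells, Lyz2 and Itgam for macrophages, S100a8 and Ngp for neutrophils, Car2 and Car1 for the erythroid list, and Col1a1 and Col1a2 for the stroma. The part of these other cell types in the results below was not tested, and in bulk RNA a smaller share of a cell type and less RNA per cell cannot be told apart.

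HIF binds a core of ACGTG or GCGTG, the hypoxia response element. Promoter windows from 250 bases before to 50 bases after a transcription start were available from RefSeq (build GRCm38.p6, used here for sequence only, since the submitters' processing notes name mm39) for 31 of the 35 members, with 41 windows in all because some genes have several starts. Slc2a3, Epas1, Bnip3l and Ndrg1 had no window. Either core, on either strand, occurred in 34 of the 41 windows (82.9%), against 43.8% of all 32851 windows. ACGTG alone occurred in 23 windows (56.1%), against 19.6% of all. The list was chosen for roles in glycolysis and hypoxia, so such an excess was built into the choice and is no finding of these data. The windows of all genes were not matched for base composition. Some windows of the same gene overlap and count the same core again, as for Eno1 and Aldoa. Every one of the 10 genes with a window that fell in the knockouts held a core, and so did 18 of the 21 with a window that did not pass the test. The stretches below lie upstream of the start, run 5′ to 3′ on the gene's strand and carry the cores in capitals. A core on the other strand reads CACGT or CACGC, and in CACGTG, which is also the E-box motif, the cores of both strands overlap. They show 6 genes that fell, covering a committed step, the payoff steps, lactate export, mitophagy and the HIF subunit itself, followed by 2 genes that did not pass the test.
Pfkl (chr10:78009872-78009936, - strand): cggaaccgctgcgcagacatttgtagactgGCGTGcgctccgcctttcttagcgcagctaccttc
Pgk1 (chrX:106186920-106187003, + strand): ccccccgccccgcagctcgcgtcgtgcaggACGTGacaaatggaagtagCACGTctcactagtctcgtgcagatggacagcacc
Eno1 (chr4:150237081-150237169, + strand): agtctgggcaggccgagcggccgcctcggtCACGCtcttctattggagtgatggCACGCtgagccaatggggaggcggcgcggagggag
Slc16a3 (chr11:120949010-120949066, + strand): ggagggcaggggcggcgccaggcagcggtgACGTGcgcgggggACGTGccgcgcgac
Bnip3 (chr7:138909507-138909653, - strand): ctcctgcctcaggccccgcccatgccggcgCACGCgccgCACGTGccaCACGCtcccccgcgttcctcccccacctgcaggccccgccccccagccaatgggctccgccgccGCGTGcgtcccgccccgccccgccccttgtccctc
Hif1a (chr12:73907702-73907831, + strand): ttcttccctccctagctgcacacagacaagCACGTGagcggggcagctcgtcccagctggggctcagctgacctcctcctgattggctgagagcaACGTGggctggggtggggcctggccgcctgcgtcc
Slc2a1 (chr4:119108654-119108743, + strand): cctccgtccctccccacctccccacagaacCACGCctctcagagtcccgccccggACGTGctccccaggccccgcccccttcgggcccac
Aldoa (chr7:126799346-126799410, - strand): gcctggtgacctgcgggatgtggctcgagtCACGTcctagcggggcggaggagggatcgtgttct
Pgk1 and Slc16a3 each held a pair of ACGTG cores close together, counting CACGT as the same core on the other strand, and Bnip3 held several cores, including a CACGTG. Slc2a1 and Aldoa held cores of the same kind while their levels did not pass the test, so that a core in the window did not separate the genes that fell from those that did not. A match describes the letters only and is no evidence of binding in these cells.

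Of the 35 genes, 11 fell in the Grem1 knockout and none rose (limma, Benjamini-Hochberg adjusted p below 0.05 over all genes tested). Among all 15832 genes tested 7.48% passed, of which 2.87% of all genes fell and 4.61% rose. The 11 that fell were the HIF subunit genes Hif1a and Epas1, the HIF prolyl hydroxylase gene Egln1, the mitophagy receptor gene Bnip3, the glycolytic enzyme genes Pfkl, Pgk1, Pgam1, Eno1 and Pkm, the lactate exporter gene Slc16a3 and the pyruvate dehydrogenase kinase gene Pdk1. At an unadjusted p under 0.05 there were 18 lower and 3 higher, against 12.2% and 14.7% of all genes. The log2 fold change was below 0 for 27 of 35 genes and the median was -0.77, against -0.0039 over all genes tested. For 7 genes every knockout lay below every control (4.6% of all genes), namely Pfkl, Pkm, Pdk1, Epas1, Egln1, Bnip3 and Ankrd37, and for none did every knockout lie above (6.82% of all genes). The number of genes that passed depended on which libraries were in the fit: it was 2 to 5 when 1 control or 1 of the first 4 knockouts was left out, and 21 (17 lower and 4 higher) with cKO replicate 5 left out. Without replicate 5 the corresponding shares of all genes were 10.1% lower and 12.4% higher. With 1 control or 1 of the first 4 knockouts left out, 120 to 246 of all 15832 genes were lower and 257 to 423 higher. With all 9 libraries these numbers were 454 and 730. On reads recovered from the normalized counts, edgeR's quasi-likelihood test called 6 members, all lower (of all genes 1.71% were lower and 3.26% higher), and DESeq2 called 14 lower and 3 higher (6.14% and 9.9%).

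**Figure D1:**
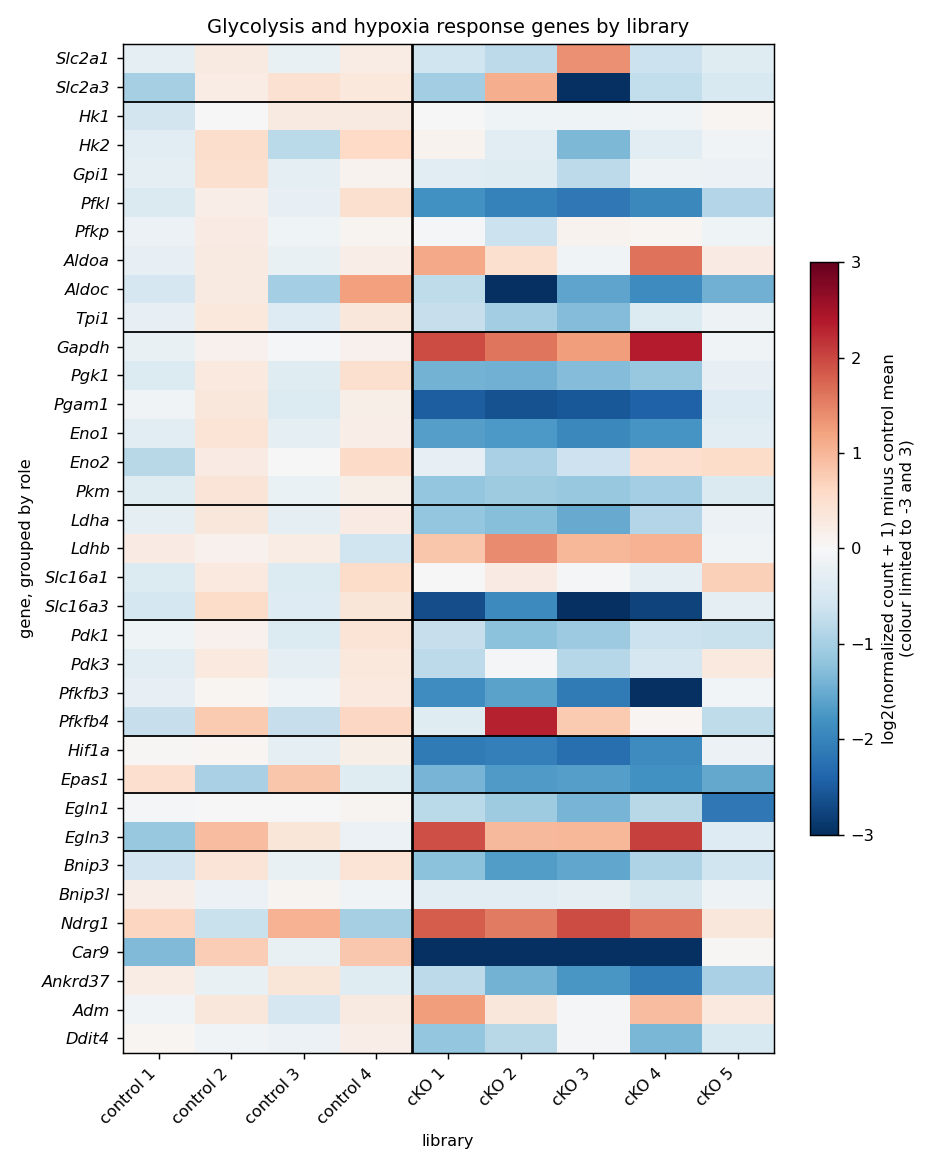
Heat map of the 35 genes (rows, in blocks by role) in the 9 libraries (columns); colour is log2(normalized count + 1) minus the mean of the 4 controls, limited to the range from -3 to 3. Pgk1, Pgam1, Eno1, Pkm, Slc16a3, Pfkfb3, Hif1a and Car9 are blue in cKO replicates 1 to 4 and pale in cKO replicate 5, whereas Epas1 and Egln1 are blue in all 5 knockouts.

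No gene of glucose uptake or trapping passed the test. Slc2a1 (GLUT1, the main basal glucose transporter) had 5983, 8754, 6222 and 8413 normalized counts in controls 1 to 4, against 4787, 4228, 18708, 4647 and 5613 in knockouts 1 to 5. The groups overlapped because cKO replicate 3 stood far above every other library while the remaining 4 knockouts lay below every control (limma log2 fold change -0.20, SE 0.40, adjusted p = 0.778). Slc2a3 (GLUT3, a high-affinity transporter abundant in neurons and myeloid cells) had its lowest value in that library. It ranged from 1015 to 2768 in controls, and cKO replicate 3 had 218, while cKO replicate 2 had 4309, the highest (limma log2 fold change -0.87, SE 0.70, adjusted p = 0.456). cKO replicate 2 also had the highest macrophage and neutrophil sums, 126619 and 797594, and replicate 3 the lowest, 5872 and 46341. Hexokinase 1, the housekeeping hexokinase, had all 5 knockouts inside the control range: Hk1 had 8555 to 15162 in controls and 11474 to 12987 in knockouts (limma log2 fold change -0.058, SE 0.17, adjusted p = 0.851; 95% interval -0.43 to 0.31). Hexokinase 2, the inducible and HIF-responsive form, had 736 to 1960.5 in controls and 509.9 to 1382 in knockouts (limma adjusted p = 0.506).

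Of the phosphofructokinase subunit genes, which encode the committed step, Pfkl fell and Pfkp did not pass. Pfkl, the liver-type phosphofructokinase subunit, had 9762, 14975, 11034 and 18450.4 in controls and 3739, 3224, 2962, 3413 and 7172 in knockouts. Every knockout lay below every control, with replicates 1 to 4 close together and replicate 5 between them and the controls. The means were 13555 ± 3947 (SD, n = 4) in controls and 4102 ± 1739.6 (SD, n = 5) in knockouts, a 3.39-fold lower level on the log2(normalized count + 1) scale (limma log2 fold change -1.76, SE 0.28, adjusted p = 0.00756), and this was the member with the smallest p. It fell in every fit that left out 1 library, and it lost its call in the comparison of replicate 5 alone with the controls. Pfkp, the platelet-type subunit, had 11839.7 to 15839 in controls and 8679 to 14419 in knockouts, overlapping almost completely (limma log2 fold change -0.13, SE 0.16, adjusted p = 0.634; 95% interval -0.50 to 0.23). The intervals of Pfkl (-2.37 to -1.15) and Pfkp did not overlap, although the difference between the subunits was not itself tested.

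The other preparatory enzymes did not pass. Gpi1, which isomerizes glucose 6-phosphate, had 9529 to 16449 in controls and 6864 to 10603 in knockouts (limma adjusted p = 0.255). Tpi1, which interconverts the triose phosphates, had 26572, 39273, 24162 and 40034 in controls and 19761, 15430.4, 12936, 23824 and 28636 in knockouts, so that cKO replicates 1 to 4 lay below every control and replicate 5 among them (limma log2 fold change -0.71, SE 0.25, adjusted p = 0.107). Of the aldolases, Aldoa (the muscle and ubiquitous form) had 42885, 61663, 43664 and 58374 in controls and 111473, 70810.3, 47444, 157561 and 60491 in knockouts (limma log2 fold change 0.68, SE 0.33, adjusted p = 0.221). Its order over the knockouts, highest in replicate 4 and then 1, 2, 5 and 3, was that of the muscle marker sum except for replicates 3 and 5. That sum was 725057 in replicate 4, 462302 in 1, 273514 in 2, 97781 in 3 and 94935 in 5. Aldoc, the brain form, was scarce and variable, with 259, 441, 181 and 866 in controls and 215, 0, 122, 97.5 and 134 in knockouts (limma log2 fold change -2.84, SE 1.44, adjusted p = 0.235).

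The payoff enzymes, which yield ATP and pyruvate, had 4 decreases among 6 genes. Pgam1 (phosphoglycerate mutase of non-muscle tissue) had 2933, 3960.4, 2373 and 3560.4 in controls, 567, 511, 536 and 589 in cKO replicates 1 to 4, and 2388 in replicate 5. Replicates 1 to 4 agreed closely with each other and lay far below the controls, while replicate 5 lay inside the control range, just above its lowest value. Over all 5 knockouts Pgam1 was 4.26-fold lower (limma log2 fold change -2.09, SE 0.43, adjusted p = 0.0219). The call was lost without control 1, 2 or 4 and without cKO replicate 1, 3 or 4. Eno1 (alpha-enolase) repeated this arrangement, with 21522, 36263, 22764 and 31524 in controls, 8709.7, 8261, 7172 and 8021 in replicates 1 to 4 and 21539.5 in replicate 5 (2.8-fold lower, limma log2 fold change -1.48, SE 0.31, adjusted p = 0.0237), and lost its call without control 2 or 4 and without any 1 of cKO replicates 1 to 4. Pkm (pyruvate kinase, whose splice forms these counts do not separate) had 62172, 105469, 70177 and 90352 in controls and 36146, 38038, 36389, 39821 and 59792 in knockouts. Here replicate 5 also lay below every control, if narrowly, and the means were 82042 ± 19608 (SD, n = 4) in controls and 42037 ± 10034 (SD, n = 5) in knockouts (1.95-fold lower, limma log2 fold change -0.96, SE 0.21, adjusted p = 0.0271); the call was lost without control 2, 3 or 4 and without any 1 of cKO replicates 1 to 4. Pgk1 (phosphoglycerate kinase) had 1392, 2246, 1434 and 2591 in controls and 692, 674, 749, 842 and 1548 in knockouts (2.16-fold lower, limma log2 fold change -1.11, SE 0.29, adjusted p = 0.0489), close to the threshold, and lost its call when any 1 library other than cKO replicate 5 was left out. Eno2, the neuronal enolase, had 228 to 608 in controls and 207 to 594 in knockouts (limma adjusted p = 0.84).

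Gapdh, the enzyme gene often used as a reference in expression assays, lay on the other side of the controls without passing the test. It had 603, 769.7, 674 and 769.9 in controls, 2710.2, 2149.6, 1677 and 3566 in cKO replicates 1 to 4 and 647 in replicate 5, so that replicates 1 to 4 stood above every control and replicate 5 did not (limma log2 fold change 1.41, SE 0.42, adjusted p = 0.0675). Its level in controls was 170.4 normalized counts per kilobase of annotated exon, against 27514 for Ldha, 17742 for Aldoa, 16405 for Pkm, 11809 for Tpi1, 5209 for Eno1 and 854 for Pgk1. Gapdh has many processed copies in the mouse genome: 20.9% of the 100-base stretches of its annotated transcripts also occurred in transcripts of 86 other genes (GENCODE M21). The share was 51.7% for Pgk1, 33.9% for Pgam1, 24.6% for Bnip3 and 20.4% for Eno1, and 26.4% of the exon length of Ankrd37 overlapped exons of other genes. How reads of shared sequence were counted is not given in the sources used here, so the levels of these 6 genes are uncertain. Among the 29 members with at most 20% of shared sequence and of exon overlap, 7 fell and none rose, against 2.87% and 4.61% of all genes. Of the 6 uncertain genes Pgk1, Pgam1, Eno1 and Bnip3 fell, and Gapdh and Ankrd37 did not pass. Eno1b, the gene that shares most sequence with Eno1, has its own row, with 3398, 5679, 3583 and 4849 in controls and 1261, 1405, 1117, 1244 and 3392 in knockouts. Reads of Eno1 may be among these counts, so that the same order of groups is no separate observation. Bnip3l-ps, a copy that shares 14% of the stretches of Bnip3l, had 1246 to 1871 in controls and 1206 to 1819 in knockouts. It did not pass, and its log2 fold change of 0.14 (limma SE 0.18, adjusted p = 0.641) had the opposite sign to that of Bnip3l (-0.32).

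**Figure D2:**
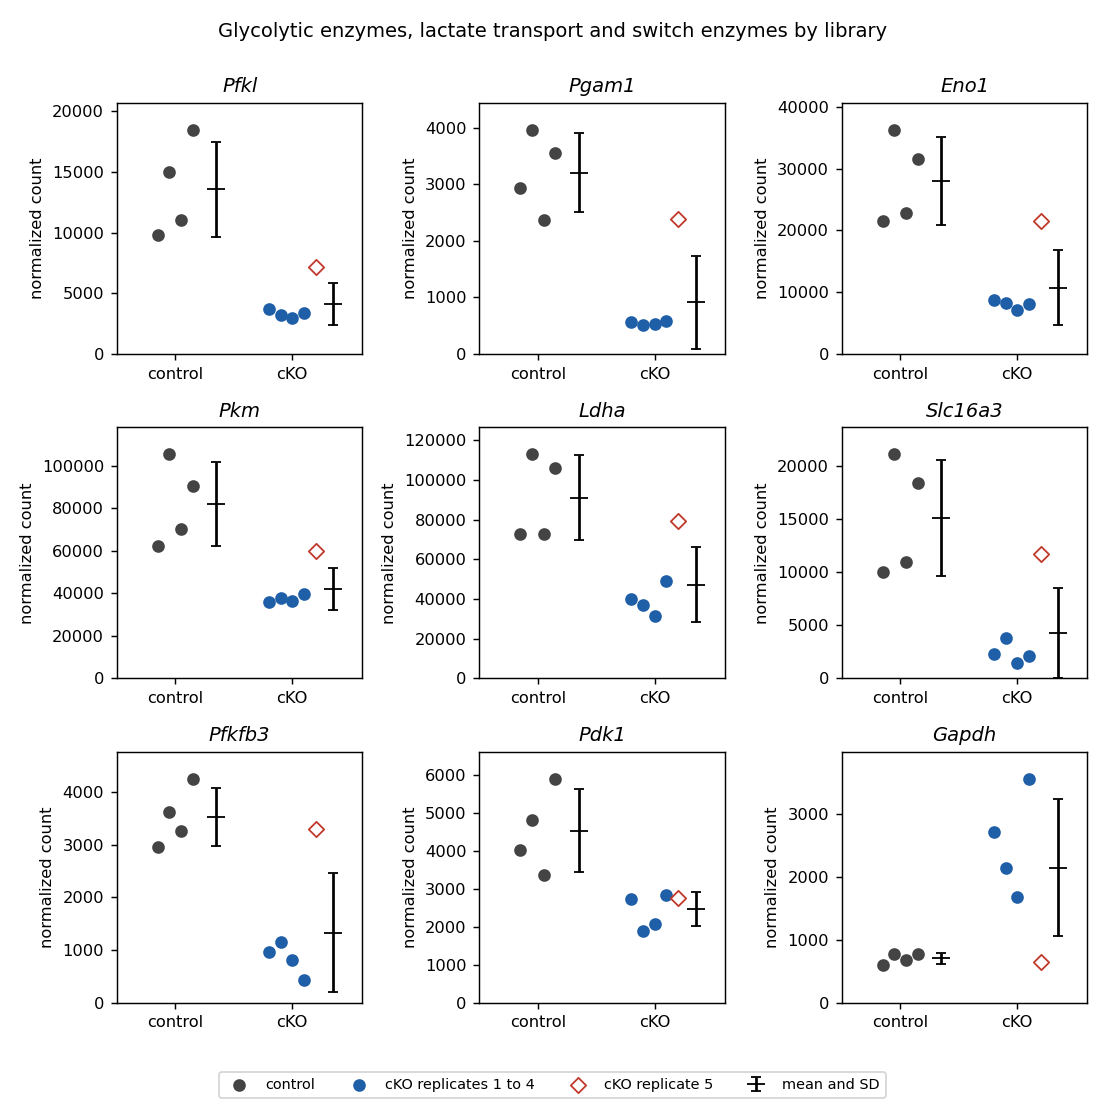
Normalized counts (vertical axes, starting at 0) of 9 genes in the control and cKO libraries; points are libraries, the open diamond is cKO replicate 5, and bars are mean and SD. In 7 of the panels cKO replicates 1 to 4 lie below all 4 controls with replicate 5 higher than they are, in Pdk1 replicate 5 lies among them, and in Gapdh replicates 1 to 4 lie above the controls.

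At the lactate end of the pathway 1 of 4 genes fell, that of the exporter. Slc16a3 (MCT4, the lactate exporter of highly glycolytic cells and a HIF target) had 10049.5, 21090.5, 10964 and 18406 in controls, 2279.6, 3831, 1450.3 and 2093 in cKO replicates 1 to 4 and 11660.3 in replicate 5. It fell 4.57-fold (limma log2 fold change -2.19, SE 0.54, adjusted p = 0.0395), with replicate 5 inside the control range, and the call was lost when any 1 library other than replicate 5 was left out. Ldha, the lactate dehydrogenase subunit that favours lactate formation, was per kilobase the most abundant of the 35 genes in controls. It had 72661, 112830, 72596 and 106206 in controls and 39879, 36982, 31153, 48809 and 79138 in knockouts, and missed the threshold (limma log2 fold change -0.998, SE 0.28, adjusted p = 0.0545); replicates 1 to 4 lay below every control. Ldhb, the subunit of oxidative tissues, had 804, 746, 787 and 449.9 in controls and 1205, 1808, 1349, 1401 and 631 in knockouts, with replicates 1 to 4 above every control (limma log2 fold change 0.83, SE 0.31, adjusted p = 0.12). Slc16a1 (MCT1, which carries lactate in either direction) had 5271 to 10346 in controls and 5791 to 11615 in knockouts and did not pass (limma log2 fold change 0.13, SE 0.25, adjusted p = 0.769). As a share of the summed counts of both transporters, Slc16a1 made up 29% to 36% in controls, 68.7% to 82.6% in cKO replicates 1 to 4 and 49.9% in replicate 5. This pair, and the other isoform shares below, were picked after the values were seen and are given without a test.

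The switch enzymes set how much glucose enters glycolysis and where pyruvate goes. Pdk1, a HIF-induced kinase that inactivates pyruvate dehydrogenase, had 4034, 4827, 3355 and 5902 in controls and 2738, 1879, 2067, 2839.6 and 2766 in knockouts. All 5 knockouts, replicate 5 included, lay below all 4 controls (1.83-fold lower, limma log2 fold change -0.87, SE 0.19, adjusted p = 0.0288). The call was lost without control 1, 2 or 4 and without any 1 of cKO replicates 1 to 4. Pdk3 had 2382 to 3676 in controls and 1640.2 to 3635 in knockouts and did not pass (limma adjusted p = 0.384). Pfkfb3, which makes the activator of phosphofructokinase, had 2959, 3621, 3271 and 4255 in controls, 961, 1152, 808 and 431 in cKO replicates 1 to 4 and 3294 in replicate 5 (limma log2 fold change -1.74, SE 0.47, adjusted p = 0.0514). Replicates 1 to 4 lay below every control and replicate 5 at the middle of the controls, and the difference missed the threshold. Pfkfb4, its relative, had 290.5 to 808 in controls and 280.3 to 2348 in knockouts, with the highest value in cKO replicate 2 (limma adjusted p = 0.703).

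The genes for the oxygen-regulated subunits both fell. Hif1a had 33859.8, 34423, 27568 and 37418 in controls, 7569, 7944, 6919 and 8996 in cKO replicates 1 to 4 and 29171 in replicate 5. Replicates 1 to 4 spanned a narrow band far below the lowest control, and replicate 5 lay inside the control range. The means were 33317 ± 4139 (SD, n = 4) in controls and 12119.9 ± 9561 (SD, n = 5) in knockouts (3.25-fold lower, limma log2 fold change -1.70, SE 0.38, adjusted p = 0.0284); with replicate 5 set apart the difference was -2.08 for replicates 1 to 4 and -0.18 for replicate 5 in log2 units. The call for Hif1a was lost when any 1 library other than replicate 5 was left out. Epas1 (HIF-2 alpha) behaved differently in replicate 5: it had 9019.9, 3224, 11239 and 4959 in controls and 2425, 1948, 2003, 1787 and 2196 in knockouts, so that all 5 knockouts lay together below all 4 controls (3.08-fold lower, limma log2 fold change -1.62, SE 0.32, adjusted p = 0.0187). The controls were uneven for Epas1, a gene strongly expressed in endothelium, and its high values in controls 1 and 3 fell in the libraries with the high endothelial sums given above; without controls 1 and 3 together the log2 fold change was -0.96 and the call was lost, as it was without control 1 or without cKO replicate 4 alone.

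Of the HIF prolyl hydroxylases, Egln1 (PHD2, the main oxygen sensor in most cells) was very even in controls, at 3351, 3525, 3479.7 and 3699, and lower in every knockout, at 1992, 1679, 1339.8, 1982 and 793. Replicate 5 had the lowest of these values, which it had for no other member that fell. The means were 3513 ± 144 (SD, n = 4) in controls and 1557 ± 504 (SD, n = 5) in knockouts (2.37-fold lower, limma log2 fold change -1.25, SE 0.25, adjusted p = 0.0211), and leaving out any 1 control removed the call while leaving out any 1 knockout did not. Egln3 (PHD3, itself a HIF target and abundant in muscle) had 327, 1366, 929 and 639 in controls and 2734, 1413, 1423, 2964 and 551 in knockouts and did not pass (limma log2 fold change 1.11, SE 0.54, adjusted p = 0.213). Its highest values, in cKO replicates 4 and 1, were in the libraries with the highest muscle marker sums. Egln3 made up 8.89% to 27.9% of the summed counts of both hydroxylases in controls and 41% to 59.9% in all 5 knockouts.

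**Figure D3:**
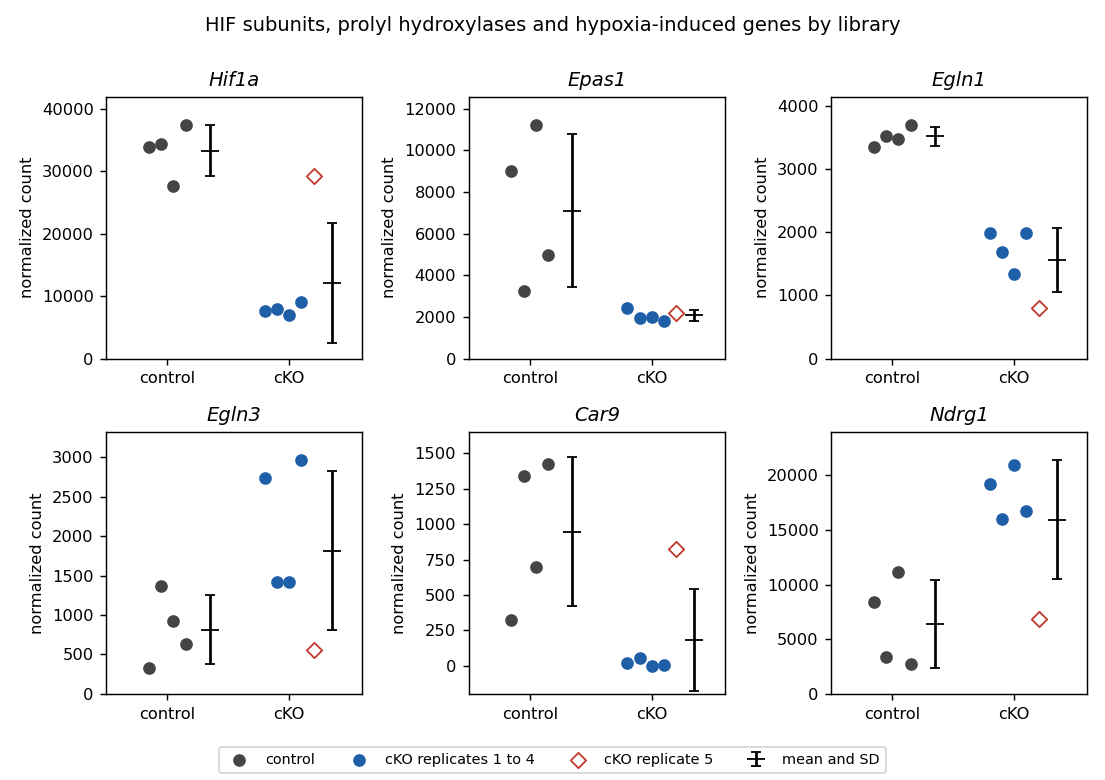
Normalized counts (vertical axes) of the HIF subunit genes Hif1a and Epas1, the hydroxylase genes Egln1 and Egln3, and Car9 and Ndrg1; points are libraries, the open diamond is cKO replicate 5, bars are mean and SD, and the bar of Car9 runs below 0 because its SD exceeds its mean. In Hif1a and Car9 replicate 5 lies among the controls, while in Epas1 and Egln1 it lies with or below the other knockouts.

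Among the remaining hypoxia-induced genes 1 of 7 passed. Bnip3, a mitophagy receptor, had 5353, 10495, 6869 and 10572 in controls and 3384, 2498, 2726, 4187 and 5256 in knockouts (2.3-fold lower, limma log2 fold change -1.20, SE 0.27, adjusted p = 0.0291), all 5 knockouts below all 4 controls, with replicate 5 just under the lowest; the call was lost without control 2, 3 or 4 and without any 1 of cKO replicates 1 to 4. Its relative Bnip3l had 4028 to 5237 in controls and 3243 to 4065 in knockouts (limma adjusted p = 0.114). Car9, a cell-surface carbonic anhydrase that is among the most oxygen-sensitive HIF targets, had the largest difference between the groups on the log2(normalized count + 1) scale. Its counts were 322, 1344, 699 and 1422 in controls, 16.2, 55.2, 0 and 2.17 in cKO replicates 1 to 4 and 825 in replicate 5. It was nearly absent from 4 knockouts and inside the control range in replicate 5, and it missed the threshold (limma log2 fold change -5.41, SE 1.67, adjusted p = 0.0744). Ankrd37, another direct HIF target, had 442, 324, 489.9 and 298 in controls and 222, 142, 112, 87.4 and 194 in knockouts, with no overlap, and missed the threshold narrowly (limma log2 fold change -1.40, SE 0.38, adjusted p = 0.0511).

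Ndrg1, Ddit4 and Adm, the remaining members, did not pass the test. Ndrg1, a HIF-inducible gene also abundant in Schwann cells, had 8423, 3400.4, 11131 and 2718 in controls, 19232, 16009, 20923 and 16718 in cKO replicates 1 to 4 and 6866 in replicate 5 (limma log2 fold change 1.46, SE 0.46, adjusted p = 0.0776). Replicates 1 to 4 lay above every control, as the Schwann marker sum did in these libraries (70279.7 to 118984 against 26315 to 33002). In replicate 5 the Schwann sum was also above every control, at 54766, while Ndrg1 lay inside the control range. Ddit4, an inhibitor of mTORC1 signalling, had 1023 to 1320.5 in controls and 444 to 1109 in knockouts (limma log2 fold change -0.77, SE 0.27, adjusted p = 0.106), and Adm, the vasodilator peptide adrenomedullin, had 519 to 939 in controls and 709.9 to 1764 in knockouts (limma log2 fold change 0.55, SE 0.30, adjusted p = 0.265).

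Set apart, cKO replicate 5, the only knockout of control-like depth, kept 23 of the 35 genes inside the control range, a share of 65.7% against 53.1% of all genes tested. The median difference of replicate 5 from the control mean was -0.18 log2 units over the 35 genes, and that of cKO replicates 1 to 4 was -0.86. Over all genes tested these medians were 0.023 and 0.0069. Among the 11 genes that fell, replicate 5 lay inside the control range for Pgk1, Pgam1, Eno1, Slc16a3 and Hif1a and below it for Pfkl, Pkm, Pdk1, Epas1, Egln1 and Bnip3. This division was narrow for Eno1 and Pgam1, just above the lowest control, and for Pkm and Bnip3, just below it. Their differences from the control mean were -0.34, -0.40, -0.43 and -0.60 log2 units. The largest differences of replicate 5 among the 11 genes were Egln1 (-2.14), Epas1 (-1.53), Pfkl (-0.87) and Pdk1 (-0.68), against -1.02, -1.65, -1.98 and -0.92 for the mean of replicates 1 to 4. In a limma fit of replicate 5 against the 4 controls, where the lone library is assumed to vary like the controls, 1 member passed as lower and none as higher, against 0.114% and 0.411% of all genes. That member was Egln1 (log2 difference -2.14, adjusted p = 0.0325); over all alternatives the adjusted p of Egln1 ran from 0.000355 to 0.112. Without replicate 5 the 4 knockouts lay wholly below the controls for 17 members and wholly above for 4 (12.3% and 15.2% of all genes), the 4 above being Gapdh, Ldhb, Egln3 and Ndrg1.

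**Figure D4:**
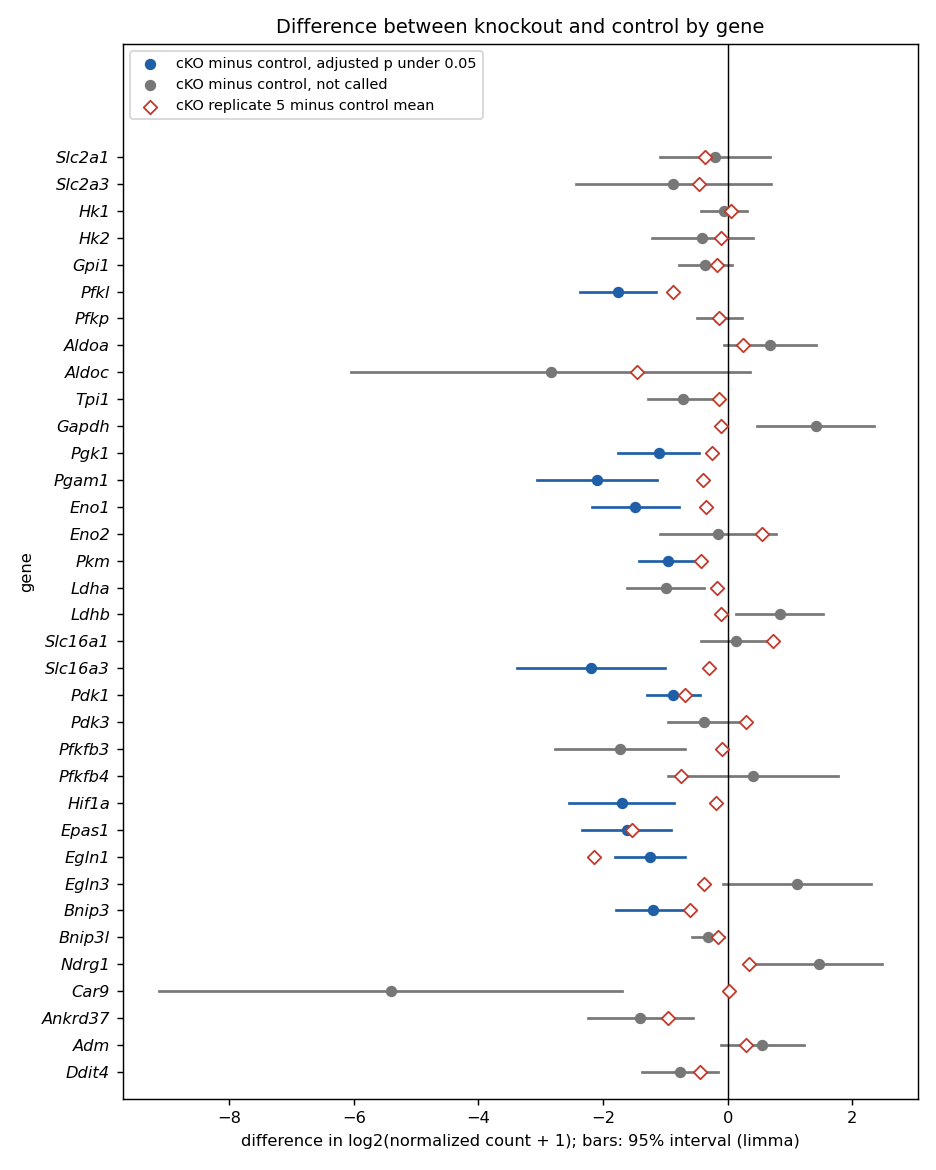
Difference between knockout and control in log2(normalized count + 1) for the 35 genes (filled points, with 95% intervals from limma; blue where the adjusted p is under 0.05) and difference of cKO replicate 5 alone from the control mean (open diamonds). The diamonds of Pgam1, Eno1, Slc16a3, Hif1a and Car9 (-0.40, -0.34, -0.30, -0.18 and 0.027) lie well to the right of the filled points, and that of Egln1 lies to the left.

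Other genes of glycolysis, taken from a list of 44 that shares no gene with the 35, had more increases than decreases: of 40 tested, 7 rose and 1 fell (median log2 fold change 0.27), against 4.61% and 2.87% of all genes. Those that rose included the muscle forms of the same steps. Pgam2, the muscle phosphoglycerate mutase, had 122, 134, 58.1 and 89.4 in controls and 8688, 5087, 1414, 14282 and 2475 in knockouts (48.1-fold higher, limma adjusted p = 0.00189), Eno3, the muscle enolase, had 389, 721, 889 and 502 and 15339, 7828, 2869, 25126 and 4028 (13.6-fold, limma adjusted p = 0.00756), and Pygm, muscle glycogen phosphorylase, rose 10.2-fold (limma adjusted p = 0.00615). In each the groups did not overlap and replicate 5 lay with the knockouts. Pdk2 and Pdp1, a kinase and a phosphatase of pyruvate dehydrogenase, rose 2.79-fold and 3.13-fold, the glucose transporter gene Slc2a12 5.75-fold and the mitochondrial pyruvate carrier gene Mpc2 2.03-fold (limma adjusted p = 0.0243, 0.0213, 0.031 and 0.0374), and the phosphoglucomutase gene Pgm2 fell 1.92-fold (limma adjusted p = 0.0357). Mpc2, and Pfkm below, fall outside the rule for named genes. Unlike Pgam2 and Eno3, Pfkm overlapped between the groups and did not pass (limma log2 fold change 0.77, SE 0.37, adjusted p = 0.214). It had 2778, 3006, 2805 and 4140 in controls and 8278, 5691, 2506, 10012 and 3677 in knockouts, so its share below also moved with the fall of Pfkl. Within the enolase pair, Eno3 made up 1.57% to 3.76% of counts in controls and 63.8%, 48.7%, 28.6%, 75.8% and 15.8% in cKO replicates 1 to 5. For Pgam2 within its pair the shares were 2.39% to 3.98% and 50.9% to 96%, and for the muscle phosphofructokinase Pfkm beside Pfkl 16.7% to 22.2% and 33.9% to 74.6%. These shares stood highest in cKO replicate 4 and lowest among knockouts in replicate 5, where the muscle marker sums were also highest and lowest. Such shares compare counts that are not adjusted for transcript length, so their change between libraries is readable and their absolute level is not.

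**Figure D5:**
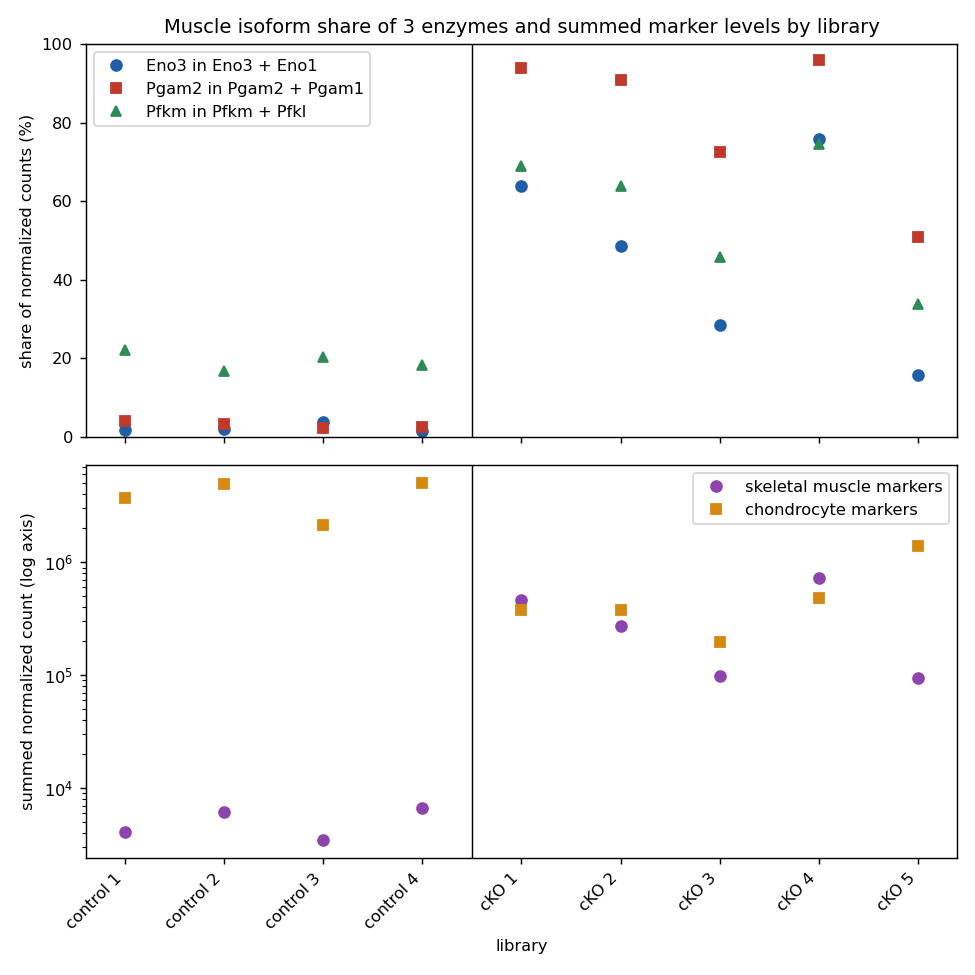
Upper panel: share (%) of the muscle isoform in the summed normalized counts of 3 enzyme pairs, by library; lower panel: summed normalized counts of the skeletal muscle and chondrocyte marker lists on a log axis. The shares lie between 1.57% and 22.2% in controls and between 15.8% and 96% in knockouts, and among knockouts they and the muscle sum are highest in cKO replicate 4 and lowest in replicate 5.

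A list of other hypoxia-responsive genes contained 62 tested genes, of which 9 fell and 3 rose (median log2 fold change -0.16), against 2.87% and 4.61% of all genes. The decreases with the smallest p were Higd1a, a mitochondrial hypoxia-induced protein (2.84-fold lower), Plod1 and Plod2, the collagen lysyl hydroxylases (2.02-fold and 2.98-fold), Stc1, the secreted glycoprotein stanniocalcin 1 (57.7-fold with the pseudocount of 1), Fam162a (1.7-fold) and Car12, a carbonic anhydrase related to Car9 (3.2-fold), with limma adjusted p of 0.0119, 0.0211, 0.0351, 0.0237, 0.0304 and 0.032. Stc1 had 2525, 433, 3115 and 514 in controls and 50.1, 31, 0, 23.1 and 79.3 in knockouts, with every knockout below every control. Plod2, by contrast, had 30138, 50699, 25913 and 44624 in controls, 8216, 12542, 8752 and 10085 in cKO replicates 1 to 4 and 30016 in replicate 5, the arrangement seen for Hif1a. The others that fell were Mif, Tmem45a and Vegfa (2.43-fold, 2.19-fold and 2.19-fold; limma adjusted p = 0.0357, 0.0459 and 0.0481), which fall outside the rule for named genes and are given to complete the count. Those that rose were Arnt2, a HIF dimer partner (3.39-fold), Cited2, which restrains HIF activity (1.63-fold), and Mt2, a metallothionein (2.28-fold); their adjusted p from limma was 0.0201, 0.0249 and 0.0439.

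The controls were not uniform for glycolysis. In 21 of the 24 enzyme and transporter genes, controls 2 and 4 both lay above controls 1 and 3, and in 1, Ldhb, they both lay below. Over all genes tested the shares were 23.8% and 23.6%. Ldha, Pkm and Slc16a3 show it in the values above. Hif1a, Egln1, Bnip3, Car9 and Adm had the same order, Hif1a in control 2 by a small margin, and Epas1, Ndrg1, Bnip3l and Ankrd37 had the reverse. Chondrocyte marker sums had the same order (4.9 and 5.07 M in controls 2 and 4, 3.71 and 2.13 M in controls 1 and 3), and endothelial sums had the reverse. This split was noticed in the data and corresponds to no label. With controls 1 and 3 left out together, Pfkl, Pkm, Pdk1 and Bnip3 were lower and Ndrg1 was higher past the threshold.

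In the authors' deposited table, 14 of the 35 genes were lower and 3 higher at an adjusted p under 0.05. The shares over all genes of that table were not counted. DESeq2 on recovered reads called 6.14% of all genes tested lower and 9.9% higher. The authors' deposited table lists log2 fold changes of -1.46 for Hif1a, -1.72 for Pfkl, -1.17 for Egln1 and -0.95 for Ldha, with adjusted p of 0.00764, 2.19e-06, 0.000343 and 0.0126. For Car9 the authors' deposited table gives -2.40 and an adjusted p of 0.373.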

How the data were processed

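RNA sequencing of sorted cells was deposited as normalized counts per gene for 9 libraries. Per the submitters' processing notes, reads were processed with STAR, featureCounts and DESeq2 on mm39, with no versions given. The deposited normalized counts (a signal of counts divided by size factors, per the file headers and values) were used for every level. The authors' deposited comparison table gives log2 fold changes, p-values and adjusted p-values, and a test statistic, here treated as a score, which was not used. Dividing each library by its smallest step gave whole reads to within 0.01 read, except for 1 value each in control replicate 3, cKO replicate 3 and cKO replicate 5. The rounded reads were used for depth, edgeR and DESeq2.

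Genes with at least 10 normalized counts in at least 4 libraries were tested with limma (trend) on log2(normalized count + 1), control against cKO, with Benjamini-Hochberg adjustment over all tested genes and called at 0.05. On this scale the fold of a gene with counts at or near 0 depends on the pseudocount. Intervals are 95% from limma. Tests were first checked on simulated data, with the same dispersion for every gene and no difference in cell make-up between libraries of a group. The check therefore does not cover libraries as uneven as these. Alternatives were other pseudocounts, filters and scalings, edgeR and DESeq2 on recovered reads, library quality weights, a replicate block, libraries under 60 M reads only, and each library left out; those for the difference of cKO replicate 5 were added after seeing the data. The text names all 35 genes, Grem1, up to 6 genes by p in each direction of 2 pathway lists (those beyond it are marked in the text), and the 2 most abundant genes of each marker list. Lepr and Ebf1 of the stroma list were added to these. A marker of the Schwann cell list is not reported here. The members and lists were chosen with earlier results of these data known. Entrez identifiers were matched to symbols through the gene table supplied with the genome (25275 of 27179). Software was R 4.3.3 with limma 3.58.1, edgeR 4.0.16 and DESeq2 1.42.0, and Python 3.11.15.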

Additional observations from a re-analysis of the deposited data

Results flagged for a closer look

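For each of the 35 genes, the highest and lowest library of each group were compared with their neighbours on the log2(normalized count + 1) scale, as the gap to the nearest library divided by the range of the group. In 11 of the 70 groups the gap exceeded the 95% critical value of Dixon's test, where chance gives about 1 in 20 groups; genes that move together are not independent groups. In 7 of the 11 the library standing apart was cKO replicate 5. It was the highest knockout for Pgam1 (gap 0.909 of the range), Eno1 (0.823), Hif1a (0.818), Pkm (0.808), Pfkl (0.736) and Pgk1 (0.733), and the lowest for Ndrg1 (0.760). Slc2a1 in cKO replicate 3 stood above the other knockouts (0.809), and Aldoc in cKO replicate 2, at 0 counts, stood below them (0.854). Among controls, Slc2a3 was lowest in control 1 (0.832) and Ldhb was lowest in control 4 (0.872).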

How the results depend on the processing

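With 4 and 5 libraries, the number of genes past the threshold moved with the method and with single libraries. Of 1184 genes past it in all, edgeR gave 786, DESeq2 2539 and quality weights 4056; of the 11 members they gave 6, 17 and 22; of 8 other glycolysis genes DESeq2 gave 14 and weights 15; of 12 other hypoxia genes edgeR gave 7, DESeq2 20 and weights 30. In libraries under 60 M reads, which compares 1 knockout with 4 controls, the counts were 83, 1, 0 and 0 in the same order, and Grem1 was -3.16 (adjusted p = 0.153); at an unadjusted p under 0.05 limma there gave 5 other glycolysis and 9 other hypoxia genes. Without controls 1 and 3 together they were 338, 5, 2 and 5, and Grem1 was -2.36 (adjusted p = 0.0934). Leaving out 1 library gave 377 to 3562 genes, 2 to 21 members, 3 to 14 other glycolysis genes and 2 to 27 other hypoxia genes, each highest without cKO replicate 5. Other pseudocounts, filters and TMM or upper-quartile scaling kept these counts within 1.5 times. The library numbers did not pair the samples: deviations of same-numbered libraries correlated at 0.07, 0.017, -0.0062 and -0.011. With the replicate block, in which the unpaired cKO replicate 5 has no say, 2715 genes, 20 members and 24 other hypoxia genes passed. Over the 35 genes and all settings, 585 results kept direction and side of the threshold, 87 lost it, 41 gained it and 22 changed sign, all of the last for genes that did not pass. On the log2 scale these were Slc2a1 (edgeR 0.030, DESeq2 0.048), Slc16a1 (weights -0.093, replicate block -0.013, without controls 1 and 3 -0.29, without control 1 -0.0075, without control 3 -0.0060, without cKO replicate 5 -0.013; with 1 library left out up to 0.32), Hk1 (without control 3 0.036, without control 4 0.031; with 1 library left out from -0.24), Eno2 (without control 4 0.04, without cKO replicate 2 0.048; with 1 library left out from -0.43), Pfkfb4 (without controls 1 and 3 -0.29, without cKO replicate 2 -0.068; with 1 library left out up to 0.70), and, in libraries under 60 M reads, Hk1 (0.057), Gapdh (-0.12), Eno2 (0.55), Ldhb (-0.11), Pdk3 (0.29), Pfkfb4 (-0.75), Egln3 (-0.38) and Car9 (0.027). The median difference of cKO replicate 5 from controls, -0.18, was -0.12 to -0.39 with 1 control left out. The cause of these changes was not tested.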
